A study of Homo sapiens with 3 samples.

Results

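ATP-binding cassette (ABC) genes of subfamilies A to G were followed through a pooled knockout screen in MIA PaCa-2, an established human pancreatic ductal adenocarcinoma cell line. The members were all genes whose symbol is ABC, a letter from A to G and a digit, which gave 45 of the 2978 genes in the library, with 10 guides each. Of these, 43 genes in 7 subfamilies are described, and every count below is over them. Cells carrying a library against metabolic genes were sequenced as 3 libraries: cells grown for 14 days in apilimod, cells grown for 14 days in its solvent DMSO, and the selected but untreated cells at day 0, called the initial population. The labels give the apilimod concentration as 200 nM, whereas the methods text of the study gives another concentration for its 14-day screen, so the dose is not settled here. Apilimod inhibits PIKfyve, the lipid kinase that makes phosphatidylinositol 3,5-bisphosphate on endosomes and lysosomes. Each group was 1 library made from 1 pool of cells, so the spread between cultures is unknown and the tests below set libraries, not conditions, against each other. Guide counts hold no marker of cell identity, so the cell line was not checked here.

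ABC proteins bind and split ATP with a pair of nucleotide-binding domains. Most couple this to membrane-spanning domains and move a substrate across a membrane, such as sterols, phospholipids, drugs, peptides or fatty acyl-CoA. Members of the ABCE and ABCF subfamilies have no membrane-spanning domains and work at the ribosome or in the cytosol instead. In tumours the superfamily is best known for drug efflux by ABCB1 and ABCG2, while ABCE1 belongs to the translation machinery that most dividing cells need. In a growth screen, guides against a gene that cells need become rarer over time.

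The libraries held 25599416 counts in apilimod, 26276517 in DMSO and 24695476 in the initial population, of which the 430 ABC guides took 1.51%, 1.51% and 1.47%. An ABC guide had a median of 677.5 counts in apilimod and 691.5 in DMSO, against 690.5 in the initial population. Of the 430 guides, 16 had under 100 initial counts and were left out, which kept 10 guides for 27 genes and 9 guides for 16 genes. All 43 ABC genes could therefore be scored, among 2969 genes in all. The score of a gene is the mean over its guides of the log2 change in the guide's share of the library against the initial population, given with the SD over guides. A gene was called when an exact two-sided rank-sum test set its guides apart from 487 intergenic control guides at an adjusted p under 0.05 over all genes.

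Most ABC genes scored near 0. The score lay within 0.5 of 0 for 38 of 43 genes in apilimod and for 40 of 43 in DMSO. The median ABC score was -0.01 in apilimod and -0.05 in DMSO, beside medians over all genes of -0.04 in apilimod and -0.03 in DMSO. ABC guides lay below -2 in 11 of 414 cases in each arm, a share of 2.66% beside 3.80% of all guides in apilimod and 3.02% in DMSO. ABCF1 and ABCE1 held 7 of these 11 guides in apilimod and 8 of 11 in DMSO, and no other ABC gene held more than 1 in either arm.

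**Figure D1:**
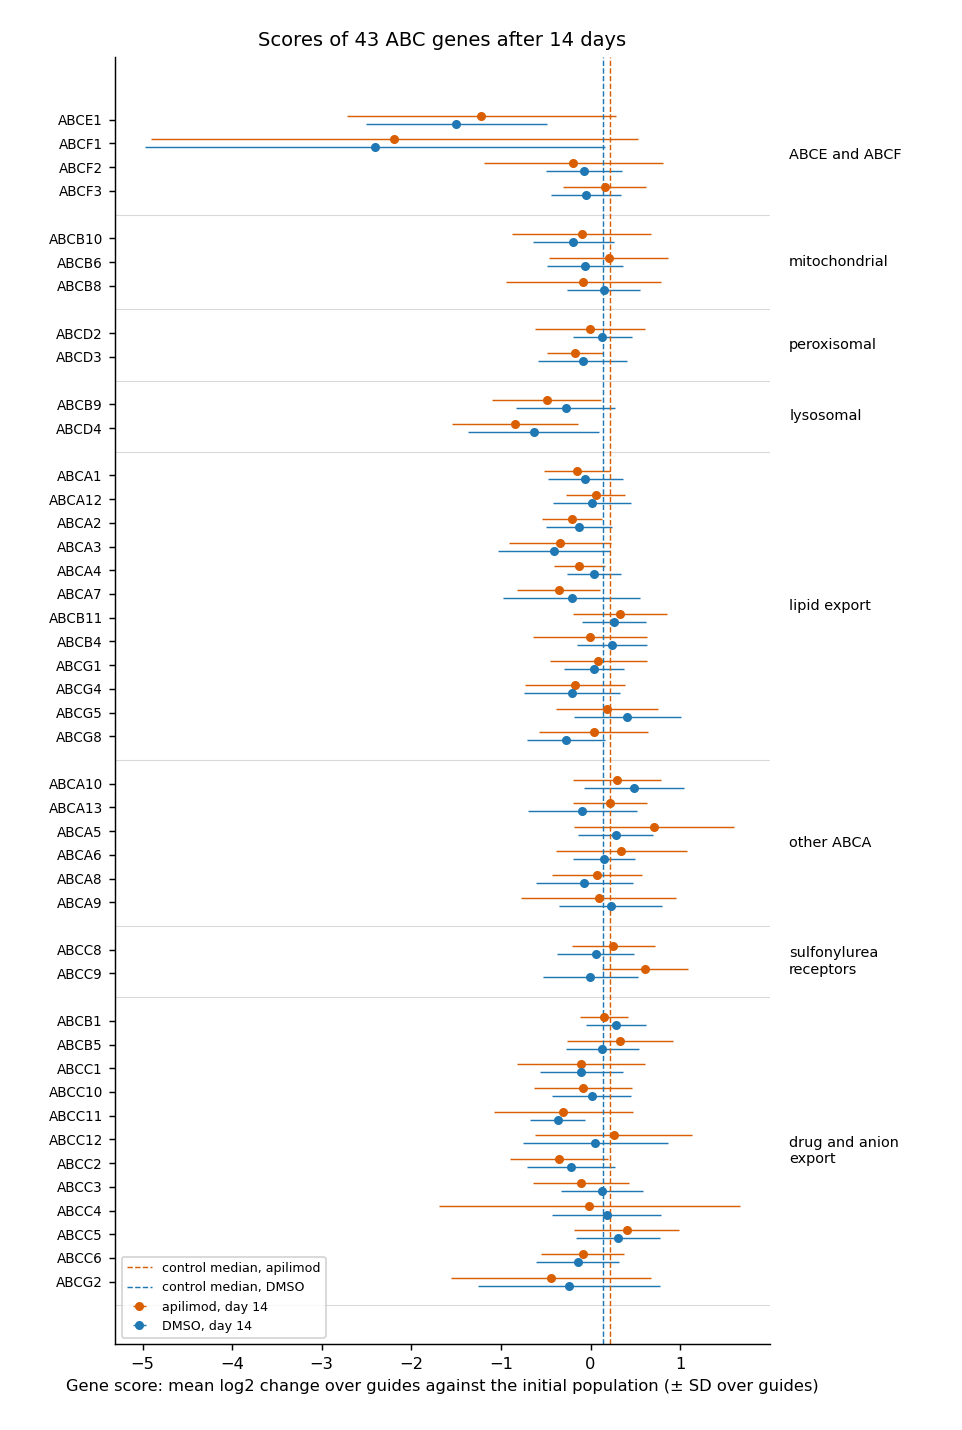
Scores of the 43 ABC genes by role, with points for the mean log2 change over guides against the initial population, bars for the SD over guides, apilimod in orange above DMSO in blue, and dashed lines at the control medians. ABCF1 (-2.19 in apilimod, -2.41 in DMSO) and ABCE1 (-1.22 and -1.50) lie far to the left, and most other genes lie near 0.

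In DMSO, 6 of 43 ABC genes (14.0%) were lower than the control guides, against 18.9% of all genes tested. None was higher, against 0.842% of all genes. In apilimod, 11 of 43 (25.6%) were lower, against 29.0% of all genes, and none was higher, against 0.236%. With the settings used here, in neither arm were ABC genes called more often than genes of the whole library. That order turned in both arms when the guide farthest from each gene's median was left out. In apilimod it also turned at a minimum of 30 initial counts and with no minimum. The control guides themselves lay above 0, at a median of 0.22 in apilimod and 0.14 in DMSO, so that a score just under 0 could be called lower. When the guides of all genes were used for the comparison in place of the control guides, 2 ABC genes were lower in DMSO (ABCE1 and ABCF1), against 7.48% of all genes, and none was higher, against 1.68%. With that comparison 3 ABC genes were lower in apilimod (ABCD4, ABCE1 and ABCF1), against 7.58% of all genes, and 2 were higher (ABCA5 and ABCC9), against 2.76%.

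Among the members at the ribosome and in the cytosol, ABCF1 binds the initiation factor eIF2 and takes part in the start of translation. It had the lowest score of the 43 genes in both arms. Its 10 guides summed to 2602 counts in apilimod and 2113 in DMSO, against 5397 in the initial population. Relative to library size the apilimod sum was 0.465 of the initial one, with a counting interval of 0.444 to 0.487, and the DMSO sum was 0.368 of it, with an interval of 0.35 to 0.387. The score was -2.19 ± 2.72 in apilimod (SD over 10 guides, adjusted p = 4.7e-05, exact rank-sum test) and -2.41 ± 2.56 in DMSO (adjusted p = 1.3e-10, exact rank-sum test), which placed ABCF1 44th from the lowest of 2969 genes in apilimod and 21st in DMSO.

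The guides of ABCF1 were unequal. Guide 3 of ABCF1 had 0 counts in apilimod and 0 in DMSO, against 468 in the initial population. Guide 5 had 27 counts in apilimod and 72 in DMSO, against 558 initially, and guide 10 had 60 and 32, against 258. At the other end, guide 7 had 959 counts in apilimod and 666 in DMSO, against 782 initially. All 10 guides lay below the control median in DMSO and 8 of 10 did so in apilimod, so the loss was shared by most guides but differed widely in depth. The gene lies on chromosome 6 of hg38, at chr6:30571393-30597179 on the plus strand.

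ABCE1 splits ribosomes after translation ends and carries iron-sulfur clusters. Its guides summed to 3083 counts in apilimod and 2575 in DMSO, against 5732 in the initial population. The score was -1.22 ± 1.50 in apilimod (adjusted p = 0.000592, exact rank-sum test) and -1.50 ± 1.01 in DMSO (adjusted p = 1.53e-05, exact rank-sum test), with 9 of 10 guides below the control median in each arm. Guide 2 was typical, with 240 counts in apilimod and 235 in DMSO, against 804 initially. Guide 4 went the opposite way in 1 arm only, with 591 counts in apilimod and 81 in DMSO, against 145 initially. Its log2 change was 1.97 in apilimod and -0.92 in DMSO, and it is among the guides with few initial counts. Guide 9 was not lost in either arm, with 437 counts in apilimod and 682 in DMSO, against 383 initially, and it was the 1 guide above the control median in DMSO.

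The remaining members of this group are the cytosolic ABCF2 and ABCF3, whose roles are less well known. ABCF2 scored -0.19 ± 1.00 in apilimod and -0.07 ± 0.42 in DMSO (adjusted p = 0.471 and 0.35, exact rank-sum test). Its guides summed to 7655 counts in apilimod and 8604 in DMSO, against 7677 initially. ABCF3 scored 0.16 ± 0.46 in apilimod and -0.05 ± 0.39 in DMSO (adjusted p = 0.655 and 0.351, exact rank-sum test), with sums of 8689 counts in apilimod and 8614 in DMSO, against 8011 initially. Neither was called in either arm, unlike ABCE1 and ABCF1, which were lower in both.

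**Figure D2:**
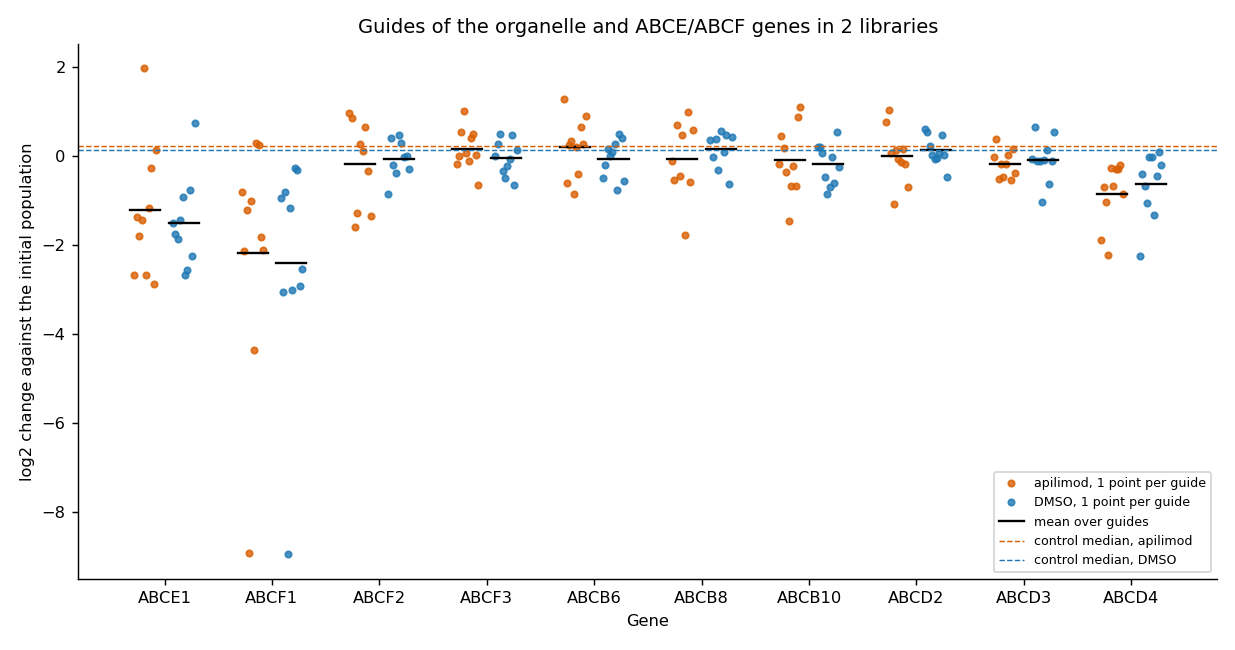
Log2 change of every scored guide against the initial population for the 10 genes of the ribosomal, mitochondrial, peroxisomal and lysosomal sets shown, with apilimod (orange) left of DMSO (blue), black bars for the mean and dashed lines at the control medians. A single guide of ABCF1 lies below -6 in both arms, whereas guides of ABCF3, ABCB6 and ABCD2 lie on both sides of 0.

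The mitochondrial members described here scored near 0. ABCB6 handles porphyrins, and scored 0.20 ± 0.67 in apilimod and -0.06 ± 0.43 in DMSO, with 11897 and 11937 counts against 9913 initially. ABCB8, linked to mitochondrial iron handling, scored -0.08 ± 0.86 in apilimod and 0.15 ± 0.41 in DMSO, with 5929 and 6519 counts against 5045 initially. ABCB10, which supports heme formation in red cell precursors, scored -0.10 ± 0.78 in apilimod and -0.19 ± 0.46 in DMSO, with 11301 and 10355 counts against 11438 initially. Their adjusted p in the exact rank-sum test ran from 0.19 to 0.947 in apilimod and from 0.11 to 0.874 in DMSO, so none of these 3 was called. Of all genes, 29.0% were lower in apilimod and 18.9% in DMSO, and 3 genes are too few to differ from these shares.

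Genes of iron-sulfur cluster and heme synthesis, which make the clusters that ABCE1 carries and the heme tied to ABCB10, were mostly lower. Of 40 genes listed, 22 were scored, and 21 of these were lower in apilimod and 16 in DMSO, with median scores of -0.79 and -0.76, beside 29.0% of all genes lower in apilimod and 18.9% in DMSO. Among them the ferredoxin reductase FDXR, which feeds electrons into cluster assembly, scored -3.00 in apilimod and -2.81 in DMSO. The cysteine desulfurase NFS1, which supplies the sulfur, scored -1.66 in apilimod and -1.96 in DMSO.

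At the peroxisome, ABCD2 carries fatty acyl-CoA, and scored -0.01 ± 0.62 in apilimod and 0.13 ± 0.33 in DMSO and was called in neither arm. ABCD3, the abundant peroxisomal membrane protein also known as PMP70, was lower in apilimod at -0.18 ± 0.31 (adjusted p = 0.0126, exact rank-sum test) and scored -0.09 ± 0.49 in DMSO (adjusted p = 0.29). Among 15 genes of peroxisomal oxidation, 2 were lower in apilimod (CRAT and HSD17B4), and 3 were lower in DMSO (CRAT, HSD17B4 and SCP2) with AMACR higher, so that the share lower was under the 29.0% of all genes in apilimod and near the 18.9% in DMSO.

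Some coding sequence of these genes occurs more than once in the genome, and a guide to such a site directs Cas9 to every copy. The files name guides by gene and number and hold no guide sequences, so the sites that the library uses were not known. In their place, every 20-base site followed by an NGG motif in the coding exons was counted, together with exact copies elsewhere in hg38 that also carry NGG. ABCE1 had copies for 63 of 144 sites (43.8%), ABCC6 for 211 of 902 (23.4%), ABCF2 for 60 of 257 (23.3%) and ABCB10 for 86 of 389 (22.1%). ABCD3 and ABCD4 had none, and ABCF1 had 12 of 400 (3.0%). Of the 9 ABC genes with over 10% of sites shared, ABCE1 was called lower in DMSO and the other 8 were not. Among all genes 18.9% were lower in DMSO, and among the 43 ABC genes 14.0%, so 1 call in 9 genes lay near these shares. The part that extra cuts have in the score of ABCE1 was not tested. ABCC6 had many copies and was not called with the settings used here. The site with the most copies is shown for ABCE1 and for ABCC6, as reference sequence of hg38 with the NGG in capitals.
ABCE1 at chr4:145110374-145110396, plus strand: ggggacagtgggatctatttTGG
ABCC6 at chr16:16219553-16219575, minus strand: tgcccagcaggcctccggagCGG

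Both sites lie in coding exons of GENCODE v44. The ABCE1 site recurs at chr1:192247498-192247520 and chr7:23563695-23563717, both in exons of processed pseudogenes. The ABCC6 site recurs in the pseudogenes ABCC6P2 and ABCC6P1 on chromosome 16. ABCC6, linked to calcification of soft tissue when defective, scored -0.09 ± 0.46 in apilimod and -0.14 ± 0.46 in DMSO (adjusted p = 0.0764 and 0.217, exact rank-sum test). Several other settings called it lower in apilimod, though none did in DMSO. These were a minimum of 30 or 300 initial counts, no minimum, and leaving out the farthest guide.

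**Figure D3:**
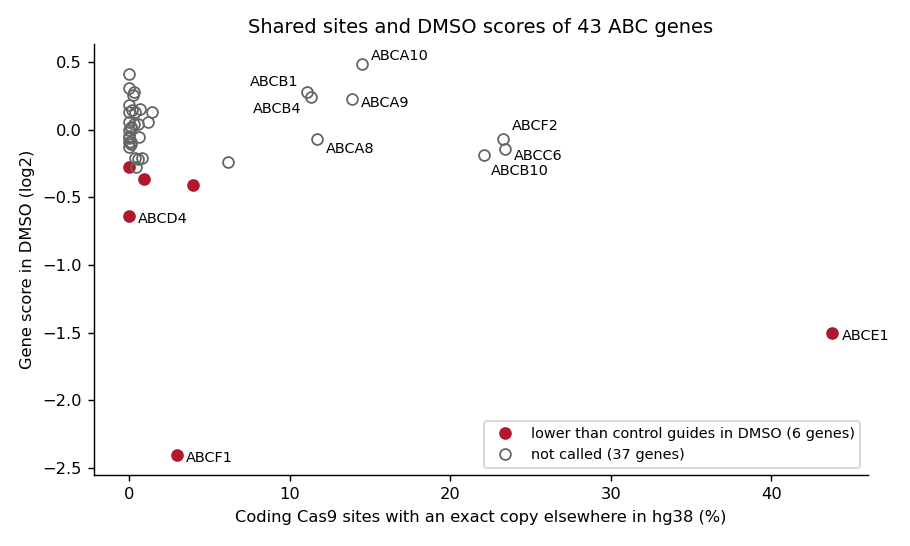
Share of coding Cas9 sites with an exact copy elsewhere in hg38 (horizontal axis, percent) against the DMSO score (vertical axis, log2) for each of the 43 ABC genes, red where the gene was lower than the control guides in DMSO. ABCE1 is red at 43.8%, ABCD4 is red at 0, and ABCC6, ABCF2 and ABCB10 are open above 20%.

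At the lysosome, ABCD4 exports cobalamin from the lysosome into the cytosol, where it becomes a cofactor of methionine synthesis and of propionate breakdown. Its guides summed to 7114 counts in apilimod and 8726 in DMSO, against 10243 in the initial population. All 10 guides lay below the control median in both arms. The score was -0.85 ± 0.70 in apilimod (adjusted p = 5.16e-07, exact rank-sum test) and -0.64 ± 0.73 in DMSO (adjusted p = 0.000259, exact rank-sum test). Guide 3 had 101 counts in apilimod and 234 in DMSO, against 461 initially, and guide 1 had 155 and 123, against 558. With the guides of all genes as the comparison the apilimod score stayed called (adjusted p = 0.0149, exact rank-sum test) and the DMSO score did not (adjusted p = 0.0883). ABCD4 lies at chr14:74285269-74303055 on the minus strand.

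ABCB9, a lysosomal peptide transporter related to TAP, was lower in apilimod at -0.49 ± 0.61, with all 9 guides below the control median (adjusted p = 0.00279, exact rank-sum test), and scored -0.28 ± 0.55 in DMSO (adjusted p = 0.0931). Its guides summed to 5126 counts in apilimod and 6062 in DMSO, against 6494 initially. Guide 5 was left out of the score for its 5 initial counts and had 92 counts in apilimod and 10 in DMSO, and with no count minimum the apilimod score was -0.05 (adjusted p = 0.0289, exact rank-sum test). Of 10 scored cobalamin genes, 2 were lower in apilimod (MMACHC and TCN1) and 2 in DMSO (MMACHC and MUT), beside 29.0% and 18.9% of all genes. MMACHC, which trims cobalamin on its arrival in the cytosol, had the lowest apilimod score of the 10, -0.46, and scored -0.24 in DMSO. The 10 genes had a median of 0.06 in apilimod and -0.01 in DMSO. Their scores ran from -0.46 to 0.45 in apilimod and from -0.35 to 0.38 in DMSO.

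Of 12 transporters of sterols, phospholipids and bile salts, 5 were lower in apilimod (ABCA1, ABCA2, ABCA3, ABCA4 and ABCA7), beside 29.0% of all genes. In DMSO 2 were lower (ABCA3 and ABCG8), beside 18.9% of all genes, and the scores in both arms were small. The group's median was -0.07 in apilimod and -0.02 in DMSO, with a range of -0.36 to 0.33 in apilimod and -0.41 to 0.41 in DMSO. ABCA3, which loads lipid into the surfactant bodies of lung cells, scored -0.34 ± 0.57 in apilimod (adjusted p = 0.0222, exact rank-sum test) and -0.41 ± 0.63 in DMSO (adjusted p = 0.015, exact rank-sum test), with 5843 and 5859 counts against 6669 initially. Both calls were lost when the guide farthest from the gene's median was left out, with an adjusted p in the exact rank-sum test of 0.0583 in apilimod and 0.0509 in DMSO.

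ABCA1 loads cellular cholesterol onto apolipoprotein A-I. Its guides summed to 8140 counts in apilimod and 8646 in DMSO, against 8372 initially, and it scored -0.15 ± 0.37 in apilimod (adjusted p = 0.0228, exact rank-sum test) and -0.06 ± 0.42 in DMSO (adjusted p = 0.139). ABCA7, a relative of ABCA1 linked to Alzheimer's disease, scored -0.36 ± 0.46 in apilimod (adjusted p = 0.00201, exact rank-sum test) and -0.21 ± 0.77 in DMSO (adjusted p = 0.279), with 6876 and 7538 counts against 7963 initially. ABCA2 scored -0.20 ± 0.34 in apilimod (adjusted p = 0.0124, exact rank-sum test) and -0.13 ± 0.36 in DMSO, and the retinal transporter ABCA4 scored -0.13 ± 0.29 in apilimod (adjusted p = 0.0172, exact rank-sum test) and 0.04 ± 0.30 in DMSO. ABCA2 guides summed to 8418 counts in apilimod and 8650 in DMSO, against 9312 initially, and ABCA4 guides to 7015 and 7784, against 6679. None of the calls in this group held with the guides of all genes as the comparison, where the adjusted p ran from 0.391 to 0.784.

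ABCG5 and ABCG8 form a dimer that pumps sterols out of liver and gut cells, and their annotated genes overlap head to head on chromosome 2. Their scores in DMSO lay on opposite sides of 0. ABCG8 was lower in DMSO at -0.28 ± 0.43 (adjusted p = 0.0259, exact rank-sum test) and scored 0.04 ± 0.61 in apilimod, with 10711 counts in apilimod and 9467 in DMSO against 10383 initially. A minimum of 30 initial counts, which adds guide 9 (82 counts in apilimod, 205 in DMSO and 80 initially), ended the DMSO call, with a score of -0.12 (adjusted p = 0.151, exact rank-sum test). ABCG5 scored 0.19 ± 0.57 in apilimod and 0.41 ± 0.60 in DMSO (adjusted p = 0.881 and 0.17, exact rank-sum test), with 4985 and 6027 counts against 4353 initially. Of 10 other genes of sterol handling, STARD3 was lower and NCEH1 higher in apilimod, beside 29.0% lower and 0.236% higher of all genes. SOAT1 and SOAT2 were lower and NCEH1 higher in DMSO, beside 18.9% lower and 0.842% higher of all genes.

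ABCA5, ABCA6, ABCA8, ABCA9 and ABCA10 stand side by side on chromosome 17, and with ABCA13 they form a set whose substrates are poorly known. None of these 6 was called against the control guides, beside 29.0% of all genes lower in apilimod and 18.9% in DMSO. So few genes cannot set this group apart from the library. Their scores ran from 0.07 to 0.71 in apilimod and from -0.09 to 0.49 in DMSO. ABCA5 had the highest score of the 43 genes in apilimod, 0.71 ± 0.89 against 0.28 ± 0.42 in DMSO (adjusted p = 0.219 and 0.639, exact rank-sum test), from 10250 counts in apilimod and 8364 in DMSO against 6947 initially. Its guide 2 had the largest change, 708 counts in apilimod and 124 in DMSO, against 103 initially. ABCA10 had the highest score in DMSO, 0.49 ± 0.56, beside 0.29 ± 0.49 in apilimod (adjusted p = 0.235 and 0.677, exact rank-sum test), with 9716 counts in apilimod and 10191 in DMSO against 7287 initially.

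Drugs and organic anions leave cells through another set, in which ABCB1 (P-glycoprotein), ABCG2 and the ABCC proteins pump drugs, conjugates and cyclic nucleotides. Of 12 genes, 1 was lower in apilimod (ABCC2) and 1 in DMSO (ABCC11), beside 29.0% and 18.9% of all genes, and their median was -0.09 in apilimod and 0.03 in DMSO. ABCC2, the canalicular exporter of bilirubin conjugates, scored -0.36 ± 0.55 in apilimod (adjusted p = 0.00696, exact rank-sum test) and -0.22 ± 0.49 in DMSO (adjusted p = 0.0557), with 6756 and 7574 counts against 8212 initially. ABCC11, known for its part in earwax type, scored -0.37 ± 0.31 in DMSO with 9 of 9 guides below the control median (adjusted p = 0.000688, exact rank-sum test), and -0.30 ± 0.78 in apilimod (adjusted p = 0.065). Its guides summed to 6855 counts in apilimod and 6895 in DMSO, against 7512 initially.

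The classical multidrug exporters did not pass the test with the settings used here, though ABCG2 was called lower in apilimod with no count minimum. ABCB1 scored 0.15 ± 0.27 in apilimod and 0.28 ± 0.34 in DMSO, with 11919 and 13600 counts against 10502 initially. ABCG2 scored -0.44 ± 1.12 in apilimod (adjusted p = 0.0515, exact rank-sum test) and -0.24 ± 1.02 in DMSO, and its guide 2 stood apart with 36 counts in apilimod and 47 in DMSO against 363 initially. ABCC1 scored -0.11 ± 0.71 in apilimod and -0.10 ± 0.47 in DMSO. ABCC5, which exports cyclic nucleotides, was among the highest in both arms, at 0.40 ± 0.58 in apilimod and 0.31 ± 0.47 in DMSO (adjusted p = 0.647 and 0.563, exact rank-sum test), with 12924 and 12460 counts against 10227 initially. ABCC4 had the widest guides of this group in apilimod, with an SD of 1.68, from guide 10 (6 counts in apilimod, 75 in DMSO and 149 initially) to guide 3 (2622, 785 and 728). Among 10 scored glutathione genes, whose product many ABCC proteins carry or use, 4 (GCLC, GCLM, GSS and GSTP1) were lower in each arm, beside 29.0% of all genes in apilimod and 18.9% in DMSO.

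ABCC8 and ABCC9 are the sulfonylurea receptors, which regulate potassium channels and are not known to transport a substrate. ABCC9 scored 0.61 ± 0.48 in apilimod (7 of 10 guides above the control median, adjusted p = 0.131, exact rank-sum test) and -0.00 ± 0.53 in DMSO (5 of 10, adjusted p = 0.707, exact rank-sum test), with 14163 counts in apilimod and 11250 in DMSO against 9714 initially. With the guides of all genes as the comparison its apilimod score was called higher (adjusted p = 0.0109, exact rank-sum test), as was that of ABCA5 (adjusted p = 0.0416). ABCC8 scored 0.25 ± 0.46 in apilimod and 0.06 ± 0.43 in DMSO. The channel pores KCNJ11 and KCNJ8 were called in neither arm, and neither were CFTR, TAP1 and TAP2, the members of the superfamily that carry other symbols.

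Guides with few initial counts were less precise. The 68 ABC guides with 100 to 299 initial counts had an SD of 1.10 in apilimod and 0.83 in DMSO, and the 346 with 300 or more had 0.85 and 0.78. Guides above 1 were more frequent in apilimod, with 26 of 414 (6.28%), than in DMSO, with 7 of 414 (1.69%), beside 5.1% and 1.84% of all guides. The control guides widened likewise, with a central 95% from -0.85 to 2.41 in apilimod and from -0.78 to 0.85 in DMSO. The part of this spread in the higher scores of single genes in apilimod was not tested.

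**Figure D4:**
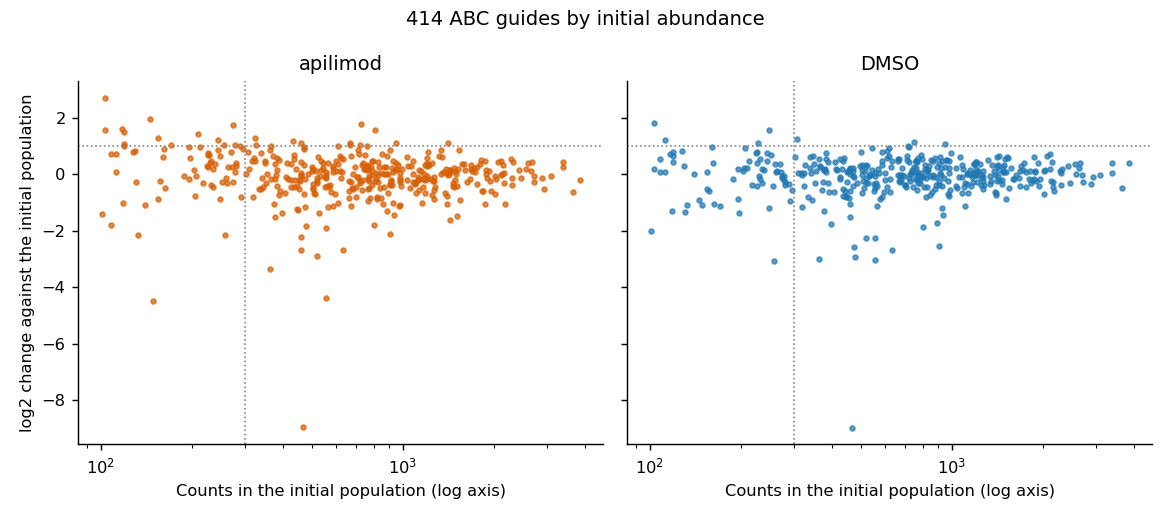
Log2 change of the 414 scored ABC guides against their counts in the initial population (log axis), apilimod left and DMSO right, with dotted lines at 300 counts and at a log2 change of 1. Above the horizontal line lie 26 guides in apilimod and 7 in DMSO, and points spread more widely left of the vertical line.

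Apilimod was set against DMSO to ask which knockouts changed in fitness under PIKfyve inhibition. Scores of each arm were first scaled to 0 at the control median and to -1 at the median of 27 nucleotide synthesis genes, which lay at -1.71 in apilimod and -1.46 in DMSO, and the difference was expressed as a z over all genes. The tests and the guides counted above the control median used this scaled difference, whereas log2 ratios are given unscaled. No ABC gene was lower in apilimod, against 0.539% of all genes, and none was higher, against 0.202%. With the guides of all genes as the comparison the counts were also 0, against 0.236% lower and 0.202% higher. At an unadjusted p under 0.05 by the exact rank-sum test against control guides, 1 ABC gene of 43 was lower (ABCA10), against 7.44% of all genes, and 2 were higher (ABCC9 and ABCF1), against 3.0%. The z lay within 2 of 0 for 42 of 43 genes, with a range of -1.09 to 2.32 and a median of 0.0032, beside -6.42 to 7.14 and -0.03 over all genes.

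ABCF1 had the highest z of the 43 genes, 2.32, with 8 of 10 guides above the control median (adjusted p = 0.279, exact rank-sum test). Its log2 ratio was 0.22 ± 0.70. Without the scaling its z was 0.82. It was 0.41 without the guide farthest from each gene's median, here guide 3, which had 0 counts in both arms. With N-glycan precursor genes as the lower anchor in place of nucleotide synthesis, ABCF1 was called higher in apilimod (z of 3.59, adjusted p = 0.00715, exact rank-sum test), and under the other 10 alternatives its adjusted p ran from 0.246 to 0.784.

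ABCC9 stood at a z of 1.98 with the largest log2 ratio of the 43 genes, 0.61 ± 0.66, with 9 of 10 guides above the control median (adjusted p = 0.248, exact rank-sum test). Its guide 4 had 365 counts in apilimod and 84 in DMSO, against 171 initially, and its guide 7 had 2160 and 1065, against 1206. For ABCE1 the z was 1.91 and the log2 ratio 0.28 ± 1.15 (adjusted p = 0.632, exact rank-sum test), with a log2 ratio of 2.89 for guide 4. Leaving out the guide farthest from the gene's median turned the z of ABCE1 to -0.52, and a minimum of 300 initial counts gave 0.51. As scored here, the low end held ABCG5 (z of -1.09, log2 ratio -0.22 ± 0.63), ABCB4, a phosphatidylcholine exporter of bile (z of -1.07, log2 ratio -0.25 ± 0.43), and ABCA10 (z of -1.04, log2 ratio -0.19 ± 0.54). Their adjusted p in the exact rank-sum test ran from 0.459 to 0.675. The direction for ABCA10 was not stable, with a z of 0.57 at a minimum of 30 initial counts, 0.48 with no minimum and 0.49 with the median over guides as the score. The z of ABCB4 stayed negative but varied in size. It was -1.95 at a minimum of 30 initial counts and -0.07 with the median over guides as the score. ABCD4, the lysosomal cobalamin exporter, had a z of -0.33. PIKFYVE, the target of the drug, scored -0.13 ± 0.33 in apilimod and 0.08 ± 0.43 in DMSO over 9 guides (adjusted p = 0.0482 and 0.911, exact rank-sum test).

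**Figure D5:**
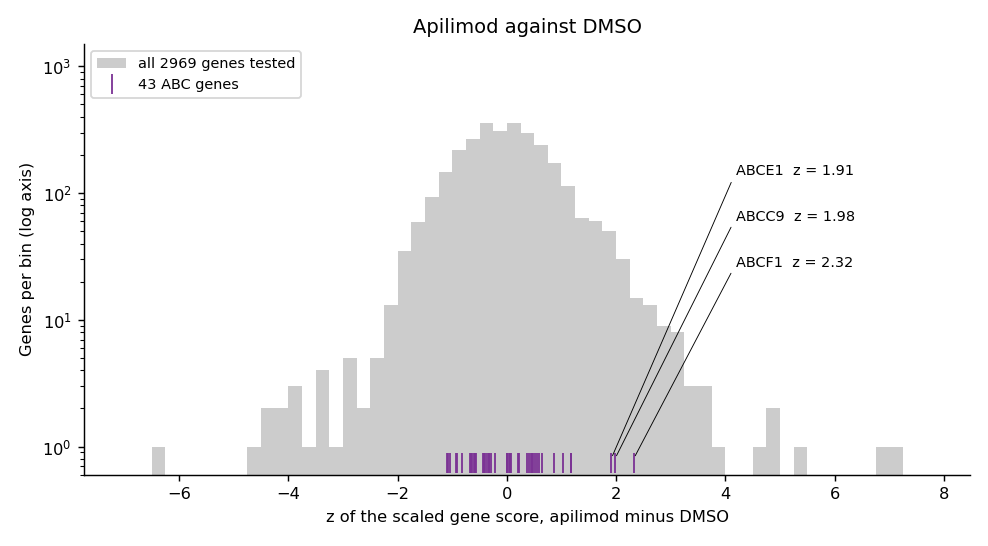
Distribution over all 2969 genes of the z of the scaled score, apilimod minus DMSO (grey bars, log axis), with the 43 ABC genes as ticks at the base. The ABC genes span -1.09 to 2.32, and ABCF1, ABCC9 and ABCE1 have the highest values. Without the guide farthest from each gene's median, the value of ABCE1 turns negative and that of ABCF1 falls to 0.41.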

How the data were processed

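The authors deposited counts per guide for 3 libraries. Per the study's methods, reads were trimmed with cutadapt (4.1), aligned to the guide library with Bowtie2 (2.4.5) and counted with MAGeCK (0.5.9.5), and the processing notes name bcl2fastq and hg38. The table of the series and the files of single libraries held the same counts. Guides carry no molecular identifiers, so intervals (95%, binomial) cover counting error only. From the counts, a pseudocount of 1 was added, each guide was divided by its library total, guides with at least 100 initial counts and genes with at least 6 such guides were kept, and scores were means of log2 changes. Rank sums of each gene's guides were tested exactly, on both sides, against 487 control guides, with Benjamini-Hochberg adjustment over 2969 genes. The procedure was tested on simulated data, without the scaling used for apilimod against DMSO. Python 3.11.15, numpy 2.4.6, pandas 2.3.3 and scipy 1.17.1 were used. Full values were given for called genes, for the 3 lowest and 3 highest scores of each comparison, and for mitochondrial, ABCE and ABCF genes. Of the 45 genes found by the rule, 2 are not reported here. Members and lists were chosen with earlier results of these data known. Alternatives changed the count minimum, comparison guides, pseudocount, guides per gene, the farthest guide, the score, and the scaling.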

Additional observations from a re-analysis of the deposited data

How the results depend on the processing

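With 1 library per group, no difference could be checked against a second culture. No paired analysis was possible because each group held a single library. With all gene-targeting guides in place of the control guides, the ABC genes called lower numbered 3 instead of 11 in apilimod and 2 instead of 6 in DMSO, and 2 instead of 0 were higher in apilimod. Under the other alternatives the lower calls ran from 11 to 13 in apilimod and from 5 to 8 in DMSO. Over all genes they ran from 763 to 864 in apilimod and from 511 to 587 in DMSO. Without the guide farthest from each gene's median, 13 ABC genes and 819 of 2969 genes were lower in apilimod, and 8 and 511 in DMSO. There the ABC share was above that of all genes in both arms. In apilimod alone it was also above at a minimum of 30 initial counts (12 ABC genes and 827 of all genes lower). The same held in apilimod with no minimum (13 and 822). Leaving out the guide farthest from each gene's median gave 1 higher call in DMSO (ABCG5, adjusted p = 0.0431, exact rank-sum test), and the N-glycan precursor list as the reference gave 1 higher call for apilimod against DMSO (ABCF1). A minimum of 300 initial counts left 40 ABC genes to test, of which 13 were lower in apilimod and 8 in DMSO. The number of all genes tested at that minimum is not given, so the shares were not compared there. ABCF1 and ABCE1 in both arms and ABCD4 in apilimod kept their calls in all 9 alternatives, while ABCG8 in DMSO lost its call in 3. Not all of the 9 could change a call. Against the initial population the test used the guides, so the median over guides as the score left the adjusted p unchanged. A minimum of 3 guides per gene left the guides of these genes as they were. Without the farthest guide the apilimod score of ABCF1 was -1.44 instead of -2.19 and that of ABCA7 -0.23 instead of -0.36, and with no count minimum that of ABCA3 was -0.71 instead of -0.34 and that of ABCA2 -0.13 instead of -0.20, all still called. The call of ABCD3 in apilimod also ended at a minimum of 300 initial counts (adjusted p = 0.0828, exact rank-sum test). For apilimod against DMSO the z ran from 0.41 to 3.59 for ABCF1, from 1.43 to 2.65 for ABCC9, from -0.52 to 2.56 for ABCE1 and from -1.31 to 0.57 for ABCA10. Over all genes that comparison called 16 lower and 6 higher as reported, 36 and 1 without scaling, 10 and 27 with the N-glycan list, 7 and 6 with all gene-targeting guides, and 52 and 1 without the farthest guide. The cause of these shifts was not tested.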
